A study of Rattus norvegicus with 44 samples.

Results

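The comparison described here set CA1 against the dentate gyrus (DG) in the aged rats of the series that received only saline. The members are 12 of the 44 libraries, a CA1 and a DG library from each of 6 of the 22 rats, chosen by the age, treatment and region in the sample labels and paired by the rat's number. The rats were male, 14 to 16 months old, and had 1 intraperitoneal saline injection a week for 7 weeks. Tissue was frozen 48 hours after the last injection, and 1 hippocampus per rat was divided into CA1 and DG. Libraries were made from polyadenylated RNA with the Ion Total RNA-Seq kit v2. Young rats given LPS in place of saline make up another 16 libraries, which are not used here. The 8 young vehicle rats, 5 to 7 months old and given the same saline schedule, serve below as the only other group. Each rat is 1 animal, and no allele or transgene is named. Because each library is a piece of tissue, fewer cells of a type and less RNA per cell cannot be told apart in any value below.

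The hippocampus passes cortical input through a chain of excitatory neurons. Granule cells of the DG receive the input from entorhinal cortex and send mossy fibres to CA3, whose pyramidal cells project to CA1, the main output stage toward the subiculum. CA1 pyramidal cells express Wfs1 and Fibcd1, while granule cells depend on the homeobox factor Prox1 for their identity. Both regions also hold GABAergic interneurons, glia and vessels, and a dissected DG includes the hilus, with its mossy cells, and can include part of CA3.

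Depth ran from 12292357 to 18497891 recovered reads per library. The CA1 library of rat 2532 stood apart and was the shallowest: 3537 genes lay at least 2-fold from the CA1 median in it, against 128 to 224 in the other CA1 libraries and 113 to 422 in DG. Its mean correlation with the other CA1 libraries was 0.913, against 0.964 to 0.972 for theirs. Results are therefore also given without rat 2532. A DG library held CA1 marker RNA to varying degrees: Wfs1, which encodes a membrane protein of the endoplasmic reticulum, stood in DG at 95.9% of the same rat's CA1 level in rat 2415 and at 3.5% in rat 2531. In the other direction Prox1 in CA1 was between 16.6% (rat 2412) and 75.8% (rat 2532) of the DG level. In rat 2532 the DG library also carried the highest summed levels of choroid plexus markers (4138 over 5 genes, against at most 1064 in the other DG libraries) and of ependymal markers (362 over 8 genes, against at most 187). The same DG library was the highest of the 6 for meningeal (1690, against at most 598) and mural markers (3154, against at most 1940).

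The upstream sequences of 4 genes on which the comparison turns are shown because they belong to a pair of CA1 markers, Wfs1 and Fibcd1, to the gene with the largest difference toward DG, Frem3, and to the granule cell gene Il16. Each is the 250 bases before the annotated start, 5′ to 3′, from RefSeq (GRCr8); capitals mark CAGATG or CAGCTG on either strand, E-box letters of the kind that factors such as Neurod1 and Neurod2 bind.
Wfs1, chr14:78034955-78035204, plus strand: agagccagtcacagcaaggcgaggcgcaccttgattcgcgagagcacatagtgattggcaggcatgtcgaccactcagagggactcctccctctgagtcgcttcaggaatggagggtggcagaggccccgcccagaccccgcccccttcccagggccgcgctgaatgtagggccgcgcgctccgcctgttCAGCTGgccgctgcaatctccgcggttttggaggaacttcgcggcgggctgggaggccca
Fibcd1, chr3:35524143-35524392, minus strand: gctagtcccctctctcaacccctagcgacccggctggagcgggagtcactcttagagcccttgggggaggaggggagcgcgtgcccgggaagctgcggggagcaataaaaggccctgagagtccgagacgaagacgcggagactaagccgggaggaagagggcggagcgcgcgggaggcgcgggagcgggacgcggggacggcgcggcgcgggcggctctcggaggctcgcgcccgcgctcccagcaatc
Frem3, chr19:44271138-44271387, minus strand: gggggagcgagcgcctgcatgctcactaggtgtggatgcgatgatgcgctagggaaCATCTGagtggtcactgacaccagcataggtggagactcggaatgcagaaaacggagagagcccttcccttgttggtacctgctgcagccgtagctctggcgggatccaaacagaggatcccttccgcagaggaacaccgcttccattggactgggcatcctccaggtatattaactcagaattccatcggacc
Il16, chr1:147116743-147116992, minus strand: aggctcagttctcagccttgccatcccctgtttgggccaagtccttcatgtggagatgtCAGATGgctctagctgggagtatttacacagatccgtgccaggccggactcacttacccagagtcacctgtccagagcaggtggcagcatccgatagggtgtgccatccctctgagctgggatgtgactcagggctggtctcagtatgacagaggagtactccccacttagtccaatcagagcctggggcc
CAGATG or its reverse complement begins at position -194 in Frem3 and -191 in Il16, counted from the start, and CAGCTG begins at -60 in Wfs1, while neither occurs in the Fibcd1 stretch. These are letter matches in 250 bases and no binding was measured. Prox1, Nov, Cst6 and Nptx1 were looked up too and are not shown, so the stretches shown give no pattern by region. CAGATG was present in 14% of the 33469 promoters in that table, in 10.1% of the 10210 tested genes matched to a promoter by symbol, in 13.7% of the 663 matched genes higher in CA1 and in 12.6% of the 704 higher in DG. For CAGCTG, a palindrome, the shares in the same order were 12%, 13.3%, 17.2% and 13.6%. The Wfs1 stretch is 66.0% G and C with 20 CG pairs and that of Fibcd1 72.0% with 32, whereas Frem3 has 56.4% with 11 and Il16 56.8% with 3.

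The markers separated the regions in the labelled direction in every rat. Wfs1 in CA1 was 15870, 15480, 11260, 13910, 17880 and 42060 in rats 2411, 2412, 2415, 2420, 2531 and 2532, in normalized reads after joint rescaling of the 12 libraries, and in DG of the same rats 4303, 5587, 10800, 6597, 626 and 8887. The lowest CA1 value exceeded the highest DG value, although rat 2415 had nearly equal levels and the CA1 library of rat 2532 was far above the rest. Its means were 19410 ± 11310 (SD, n = 6) in CA1 and 6132 ± 3564 (SD, n = 6) in DG (log2 difference 1.93, SE 0.48, limma adjusted p = 0.0271). Fibcd1, a receptor that binds acetylated sugars, was 6133, 7157, 4142, 6491, 6373 and 4303 in CA1 and 1489, 1170, 1390, 1346, 399.5 and 1373 in DG. All 6 CA1 values lay above all 6 DG values, and the DG library of rat 2531 was the lowest (log2 difference 2.36, SE 0.27, limma adjusted p = 0.000825). Prox1 was 1226, 429.8, 966, 1100, 1053 and 1482 in CA1 and 2780, 2586, 2489, 2633, 2599 and 1954 in DG. DG was higher in each rat, least so in rat 2532 (log2 difference -1.35, SE 0.22, limma adjusted p = 0.00399). Wfs1 (kept in 2 of 6 fits, highest limma adjusted p = 0.176 without rat 2532) did not keep its call in every fit that left out 1 rat.

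**Figure D1:**
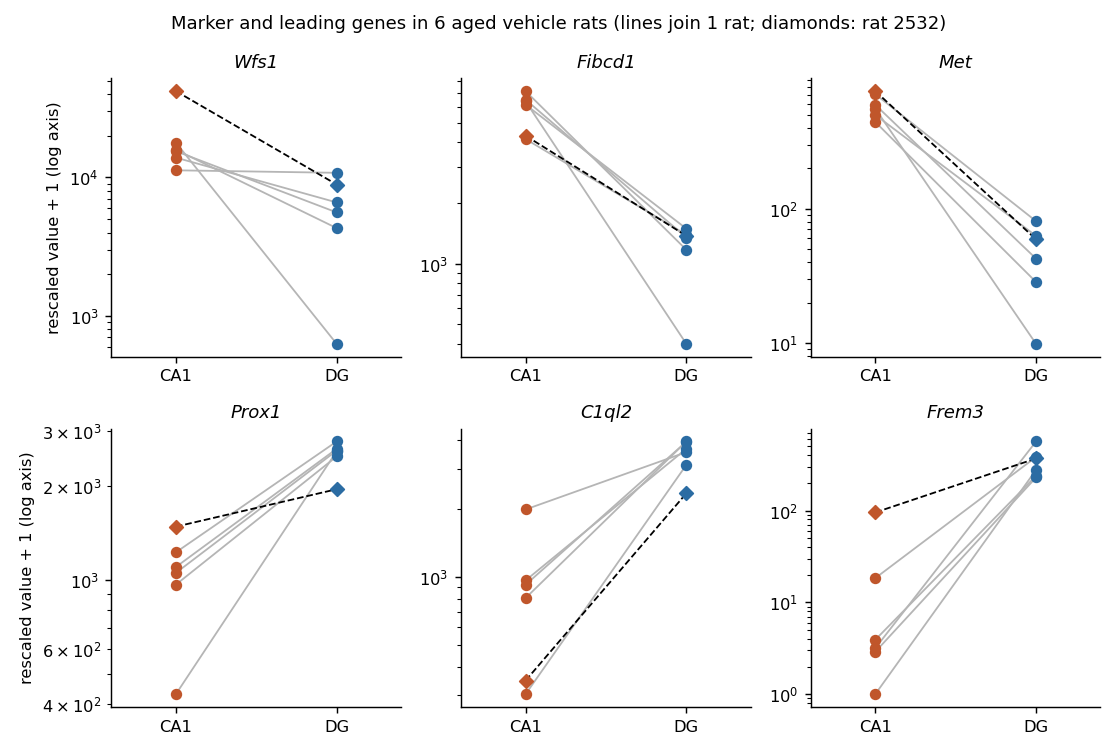
Levels of 3 genes higher in CA1 (Wfs1, Fibcd1, Met) and 3 higher in DG (Prox1, C1ql2, Frem3), as rescaled normalized reads plus 1 on a log axis. Points are libraries, orange for CA1 and blue for DG, lines join the libraries of 1 rat, and diamonds with dashed lines are rat 2532. The 6 CA1 values do not overlap the 6 DG values for any of these genes. For Met, C1ql2 and Frem3 that was a rule of choice.

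Of 14470 genes tested, 1910 passed limma's test of CA1 against DG within rats at an adjusted p under 0.05 (13.2%), termed called below. Of these, 923 were higher in CA1 (6.38%) and 987 higher in DG (6.82%). An unadjusted p under 0.05 was reached by 4351. The median size of a called difference was 0.72 on the log2 scale and the smallest was 0.30. At least 2-fold differences were called for 278 genes higher in CA1 (1.92%) and 247 higher in DG (1.71%). All 6 CA1 values lay above all 6 DG values for 561 genes (3.88%) and all 6 DG values above all CA1 values for 685 (4.73%). Without rat 2532 the count was 3545 (24.5%), 1727 higher in CA1 (11.9%) and 1818 higher in DG (12.6%), while leaving out rat 2420 left 896, rat 2531 923 and rat 2415 1068. A call was held in all 6 of these fits by 805 of the 1910 genes. The median difference over all genes tested was 0.0047, against which the list medians below are to be read. Counts called in a list are likewise to be read against 6.38% of all tested genes for CA1 and 6.82% for DG. Without rat 2532 those shares were 11.9% and 12.6%.

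**Figure D2:**
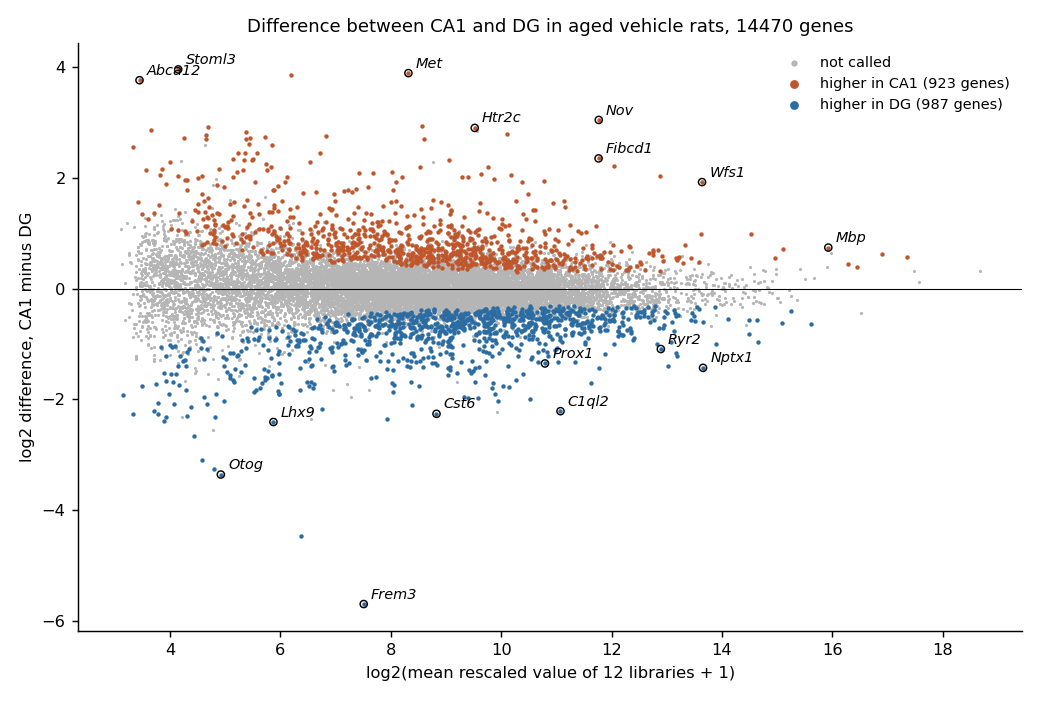
Each point is 1 of 14470 genes: the mean level in the 12 libraries on a log2 axis against the log2 difference CA1 minus DG. Orange points were called higher in CA1 (923 genes) and blue points higher in DG (987 genes), and circled genes are named in the text; the largest difference is that of Frem3 at -5.70.

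Among called genes with ordinary symbols whose regional values did not overlap, the 10 largest differences toward CA1 included 5 receptors. Absence of overlap was a rule of choice for these 10 and for the 10 toward DG, and is no further support. Met, the receptor tyrosine kinase for hepatocyte growth factor, ran from 441 to 748 (median 573) in CA1 and from 8.85 to 79.6 (median 49.7) in DG. DG thus held little Met in any rat (14.9-fold higher in CA1, log2 difference 3.90, SE 0.32, limma adjusted p = 0.000261). Tacr3, the receptor for neurokinin B, ran from 98.0 to 197 (median 124) in CA1 and from 0 to 34.6 (median 8.09) in DG. It was at 0 in 1 DG library, that of rat 2420 (log2 difference 3.86, SE 0.49, limma adjusted p = 0.00125). Stoml3, a stomatin-family membrane protein known from sensory neurons and cilia, ran from 12.3 to 60.4 (median 31.0) in CA1 and from 0 to 9.36 (median 0) in DG. It was read in 2 of 6 DG libraries, those of rats 2420 and 2532 (log2 difference 3.96, SE 0.43, limma adjusted p = 0.000679).

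Abca12, a lipid transporter known from skin, ran from 16.8 to 20.6 (median 19.3) in CA1 and from 0 to 1.87 (median 0.428) in DG, with 3 DG libraries at 0. The CA1 values were close together, and the highest DG value was 1.87 (log2 difference 3.77, SE 0.41, limma adjusted p = 0.000709). Abca12 and Stoml3 passed the filter of 10 or more in 6 columns only through CA1. Their separate ranges, the sizes of their differences and their limma adjusted p values therefore carry no weight. Nov, a secreted matricellular protein, ran from 4569 to 9722 (median 5492) in CA1 and from 238 to 1268 (median 926) in DG. The CA1 library of rat 2532 was the highest and DG of rat 2531 the lowest (8.29-fold higher in CA1, log2 difference 3.05, SE 0.25, limma adjusted p = 0.000275). The serotonin receptor Htr2c (log2 difference 2.91, SE 0.28, limma adjusted p = 0.00048), the latrophilin Adgrl2 (2.79), the prokineticin receptor Prokr2 (2.74) and the ankyrin-repeat gene Ankrd63 (2.72) were also among the 10. Met, Tacr3, Htr2c, Prokr2 and the adhesion receptor Adgrl2 are the receptors among them.

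Toward DG, among genes chosen by the same rule of no overlap, the largest difference was that of Frem3, an extracellular matrix protein. It ran from 0 to 94.3 (median 2.54) in CA1 and from 228 to 564 (median 322) in DG. Apart from the CA1 library of rat 2532 at 94.3, the CA1 values were at most 17.4 and 1 was 0 (51.8-fold higher in DG, log2 difference -5.70, SE 0.68, limma adjusted p = 0.000955). Otog, otogelin, a matrix protein known from the inner ear, ran from 0 to 20.4 (median 7.24) in CA1 and from 29.0 to 65.8 (median 50.2) in DG. It was at 0 in 2 CA1 libraries (log2 difference -3.36, SE 0.54, limma adjusted p = 0.00353). Lhx9, a LIM-homeobox factor, ran from 11.4 to 33.7 (median 16.8) in CA1 and from 73.3 to 124 (median 91.6) in DG. The highest CA1 value was that of rat 2411 (log2 difference -2.41, SE 0.20, limma adjusted p = 0.000261).

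Cst6, an inhibitor of cysteine proteases, ran from 122 to 178 (median 168) in CA1 and from 553 to 926 (median 774) in DG. It was 4.79-fold higher in DG (log2 difference -2.26, SE 0.14, limma adjusted p = 8.31e-05). C1ql2, a secreted organiser of mossy fibre synapses, ran from 303 to 1980 (median 863) in CA1 and from 2335 to 3952 (median 3608) in DG. CA1 of rat 2411 held the highest CA1 level (log2 difference -2.21, SE 0.26, limma adjusted p = 0.000923). The cytolinker periplakin, Ppl (-2.35), the splicing factor Rbm20 (-2.32), Phlda2 (-2.32), the homeobox gene Msx3 (-2.26) and the cytochrome P450 Cyp2a1 (-2.39) completed the 10 toward DG. Phlda2 and Msx3 passed the filter of 10 or more in 6 columns only through DG. Their separate ranges, the sizes of their differences and their calls therefore carry no weight. Reads of Cyp2a1 may be shared with near-identical family members, so its value is uncertain. Msx3 (kept in 4 of 6 fits, highest limma adjusted p = 0.0525 without rat 2412) and Cyp2a1 (4 of 6, 0.0707 without rat 2531) did not keep their calls in every fit that left out 1 rat.

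The lists for the principal neurons followed the labels. The CA1 pyramidal list had 12 of 16 tested genes higher in CA1 and 2 higher in DG (median 1.97), and 9 and 2 without rat 2532. Man1a1, a Golgi mannosidase, was 4.19-fold higher in CA1 (log2 difference 2.07, SE 0.13, limma adjusted p = 8.31e-05). Mpped1 (2.21), Ndst4, an enzyme of heparan sulfate synthesis (2.11), the POU factor Pou3f1 (2.19) and the ciliary receptor Gpr161 (2.02) were higher too. Against the list's name stood the neuronal pentraxin Nptx1, which clusters AMPA receptors. It ran from 5581 to 8857 (median 6605) in CA1 and from 15260 to 22140 (median 19060) in DG, all DG values being above all CA1 values (log2 difference -1.43, SE 0.11, limma adjusted p = 0.00019). Zfpm2, a zinc-finger cofactor, was also higher in DG (-0.93). Calls in the CA1 list ran from 1 (5 of the 6 fits) to 2 (without rat 2532) for DG when rats were left out singly. Summed levels of 17 listed genes were 41250 to 82777 in CA1 and 27073 to 37588 in DG. Pou3f1 (kept in 5 of 6 fits, highest limma adjusted p = 0.079 without rat 2532) and Zfpm2 (1 of 6, 0.0847 without rat 2531) did not keep their calls in every fit that left out 1 rat.

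The dentate granule list had 1 of 19 tested genes higher in CA1 and 15 higher in DG (median -1.17), and without rat 2532 17 were higher in DG. Il16, a cytokine precursor, ran from 173 to 396 (median 347) in CA1 and from 934 to 1646 (median 1203) in DG, without overlap (log2 difference -1.98, SE 0.14, limma adjusted p = 0.000137). The polo-like kinase Plk5 (-1.98), the desmosomal protein desmoplakin, Dsp (-1.53), the opioid peptide precursor Pdyn (-1.32), the cadherin Cdh9 (-1.46), the transcription factors Glis3 (-1.27) and Rfx3 (-1.23) and the Notch coactivator Maml2 (-1.13) were higher in DG. Zbtb20 at -0.49, Penk at -0.48 and Npnt at -0.28 were not called. The exception was Calb1, which encodes the calcium buffer calbindin. It ran from 1004 to 1916 (median 1114) in CA1 and from 592 to 893 (median 761) in DG, so that every CA1 value lay above every DG value in these aged rats (log2 difference 0.72, SE 0.18, limma adjusted p = 0.0289). Calb1 (kept in 3 of 6 fits, highest limma adjusted p = 0.0988 without rat 2420) did not keep its call in every fit that left out 1 rat.

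Markers of neighbouring fields were not evenly shared. Of the CA3 list, 0 of 10 tested genes were higher in CA1 and 3 higher in DG: Homer3, a scaffold for group I glutamate receptors (log2 difference -1.70, SE 0.12, limma adjusted p = 0.000137), the kainate receptor subunit Grik4 (-1.64) and the secreted protease-like Prss35 (-1.28). CA3 calls ran from 3 (5 of the 6 fits) to 8 (without rat 2532) for DG when rats were left out singly. The mossy cell list had 3 of 9 tested genes higher in CA1 and 1 higher in DG. Ociad2 (log2 difference 1.79, SE 0.20, limma adjusted p = 0.000727), the CGRP-receptor subunit Calcrl (1.06) and the peptide precursor Adcyap1 (0.84) were higher in CA1, and neuromedin B, Nmb, in DG (-2.17). Mossy cell calls ran from 1 (without rat 2531) to 3 (without rat 2412 or 2532) for CA1 when rats were left out singly. The CA2 list had 2 of 8 tested genes higher in CA1 and 2 higher in DG: the signalling scaffold Rgs14 (1.04) and versican, Vcan (0.75), in CA1, and neurotrophin 3, Ntf3 (-1.60), and Pcp4 (-0.79) in DG. Summed CA3 marker levels were 2790 to 5492 in CA1 and 4860 to 7199 in DG. The part of these fields in the other results was not tested. Calcrl (kept in 5 of 6 fits, highest limma adjusted p = 0.0532 without rat 2531), Adcyap1 (2 of 6, 0.101 without rat 2415) and Pcp4 (2 of 6, 0.0797 without rat 2531) did not keep their calls in every fit that left out 1 rat.

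The subiculum list, for the region next to CA1, had 3 of 8 tested genes higher in CA1 and 0 higher in DG (median 0.96). The ETS factor Etv1 (log2 difference 1.43, SE 0.15, limma adjusted p = 0.000592), the zinc-finger factor Fezf2 (1.36) and the vesicular glutamate transporter Slc17a6 (1.79) were higher in CA1. Neurotensin, Nts, ran from 848 to 1488 (median 1134) in CA1 and from 2.21 to 737 (median 311) in DG, and the regions did not overlap, but the difference was not called (log2 difference 2.84, SE 0.92, limma adjusted p = 0.0739). Summed levels of its 8 genes were 7266 to 9767 in CA1 and 3896 to 6639 in DG, none of them at 0 in any library. How far subicular tissue entered the CA1 libraries was not tested.

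Of interneuron genes, more were called higher in CA1 than in DG. The list had 9 of 22 tested genes higher in CA1 and 1 higher in DG (median 0.37). Vip, a peptide of disinhibitory interneurons, ran from 302 to 496 (median 417) in CA1 and from 100.7 to 181 (median 128) in DG. The regions did not overlap (2.99-fold higher in CA1, log2 difference 1.58, SE 0.15, limma adjusted p = 0.00048). Cck, cholecystokinin (log2 difference 1.59, SE 0.18, limma adjusted p = 0.000709), the substance P precursor Tac1 (1.45), Nxph1, a neurexin ligand (0.78), the neuregulin receptor Erbb4 (0.82) and the GABA-synthesising enzymes Gad1 (0.36) and Gad2 (0.56) were higher in CA1. Somatostatin, Sst, at 0.16, Npy at -0.26 and parvalbumin, Pvalb, at 0.48 were not called. Lamp5, which marks neurogliaform interneurons, was higher in DG, running from 308 to 625 (median 396) in CA1 and from 1151 to 1482 (median 1179) in DG (log2 difference -1.56, SE 0.14, limma adjusted p = 0.000343). Interneuron calls ran from 5 (without rat 2420) to 11 (without rat 2532) for CA1 when rats were left out singly. Gad1 (kept in 1 of 6 fits, highest limma adjusted p = 0.142 without rat 2420) and Gad2 (3 of 6, 0.102 without rat 2531) did not keep their calls in every fit that left out 1 rat.

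Most genes of myelinating oligodendrocytes were higher in CA1: 14 of 19 tested genes were higher in CA1 and 0 higher in DG (median 0.66), and 19 of 19 without rat 2532. Mal, a proteolipid of compact myelin, ran from 1888 to 4061 (median 2236) in CA1 and from 854 to 1886 (median 1050) in DG. The ranges approached each other through the DG library of rat 2532 but did not overlap (2.11-fold higher in CA1, log2 difference 1.07, SE 0.10, limma adjusted p = 0.000455). Mog (0.97), Ermn (1.16), Mbp (0.75) and the aspartoacylase Aspa (1.23), which are myelin proteins or enzymes of the same cells, were higher too. Summed levels of 19 genes were 124250 to 190970 in CA1 and 64864 to 128470 in DG, and their part in other differences was not tested. Precursor genes had 3 of 11 tested genes higher in CA1 and 0 higher in DG: Neu4 (0.51), Olig2 (0.42) and Pdgfra (0.44). Precursor calls ran from 0 (5 of the 6 fits) to 6 (without rat 2532) for CA1 when rats were left out singly. Neu4 (kept in 1 of 6 fits, highest limma adjusted p = 0.108 without rat 2415), Olig2 (1 of 6, 0.129 without rat 2420) and Pdgfra (1 of 6, 0.147 without rat 2420) did not keep their calls in every fit that left out 1 rat.

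Most astrocyte genes were not called: 3 of 19 tested genes were higher in CA1 and 0 higher in DG (median 0.17). Of all tested genes 6.38% were called higher in CA1 and 6.82% higher in DG. The difference was toward CA1 for 18 of the 19 astrocyte genes, called or not, and for 7315 of all 14470 tested genes. Genes of the list are not independent of each other. The water channel Aqp4 (log2 difference 0.60, SE 0.14, limma adjusted p = 0.0215), the gap junction protein Gja1 (0.49) and the transporter Slc7a10 (0.44) were higher in CA1. Gfap, the intermediate filament protein of astrocytes, ran from 19770 to 25170 (median 20970) in CA1 and from 17000 to 24710 (median 21970) in DG and was not called (limma adjusted p = 0.911). Astrocyte calls ran from 0 (without rat 2420 or 2531) to 6 (without rat 2532) for CA1 when rats were left out singly. Of the reactive astrocyte list, 3 of 14 tested genes were higher in CA1 and 0 higher in DG: the hyaluronan receptor Cd44 (0.71), the oncostatin receptor Osmr (1.05) and Ggta1 (0.49). Reactive astrocyte calls ran from 0 (without rat 2531) to 7 (without rat 2532) for CA1 when rats were left out singly. Aqp4 (kept in 4 of 6 fits, highest limma adjusted p = 0.0869 without rat 2531), Gja1 (3 of 6, 0.118 without rat 2531), Slc7a10 (1 of 6, 0.138 without rat 2531), Cd44 (5 of 6, 0.0552 without rat 2531), Osmr (2 of 6, 0.0972 without rat 2420) and Ggta1 (1 of 6, 0.147 without rat 2420) did not keep their calls in every fit that left out 1 rat.

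Counts for microglial and immune lists are to be read against the 6.38% of all tested genes called higher in CA1 and the 6.82% called higher in DG, and without rat 2532 against 11.9% and 12.6%. The homeostatic microglia list had 2 of 13 tested genes higher in CA1 and 0 higher in DG: Aif1, a calcium-binding protein of microglia (log2 difference 0.87, SE 0.13, limma adjusted p = 0.0022), and the nucleotide receptor P2ry13 (0.55). Homeostatic calls ran from 1 (without rat 2412, 2415, 2420 or 2531) to 9 (without rat 2532) for CA1 when rats were left out singly. The activated list had 2 of 15 tested genes higher in CA1 and 1 higher in DG: osteopontin, Spp1 (2.35), and Cd9 (0.55) in CA1, and lipoprotein lipase, Lpl (-0.76), in DG. Activated calls ran from 0 (without rat 2415) to 7 (without rat 2532) for CA1 when rats were left out singly. Spp1 ran from 54.5 to 79.5 (median 66.2) in CA1 and from 0 to 61.8 (median 15.7) in DG, and the DG libraries overlapped CA1 through rat 2532 alone. Of the complement list, 1 of 17 tested genes were higher in CA1 and 1 higher in DG, the latter being the protease C1r (-0.69). Complement calls ran from 0 (without rat 2531) to 4 (without rat 2532) for CA1 when rats were left out singly. The cathepsin Ctss (0.51) was the 1 called gene of 4 in class II presentation. P2ry13 (kept in 1 of 6 fits, highest limma adjusted p = 0.162 without rat 2420), Spp1 (2 of 6, 0.111 without rat 2420), Cd9 (4 of 6, 0.0602 without rat 2415), Lpl (1 of 6, 0.117 without rat 2531), C1r (2 of 6, 0.0904 without rat 2531) and Ctss (5 of 6, 0.0524 without rat 2420) did not keep their calls in every fit that left out 1 rat.

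Vascular, meningeal and ventricular lists gave 2 of 14 endothelial, 1 of 9 mural, 1 of 7 meningeal, 0 of 3 choroid plexus (0 at an unadjusted p under 0.05) and 3 of 6 ependymal genes higher in CA1, and none higher in DG in these 5 lists. Of all tested genes 6.38% were called higher in CA1 and 6.82% in DG. Called or not, differences were toward CA1 for 14 of 14 endothelial, 8 of 9 mural and 6 of 7 meningeal genes. The same held for 1 of 3 choroid plexus and 6 of 6 ependymal genes, and for 7315 of all 14470 tested genes. Genes of a list are not independent of each other. Itm2a (0.67) and the thyroxine transporter Slco1c1 (0.67) represented endothelium, the potassium-channel regulator Abcc9 (0.56) mural cells and decorin, Dcn (1.93), meninges, although Dcn is also on the CA1 list. Endothelial calls ran from 0 (without rat 2420 or 2531) to 7 (without rat 2532) for CA1 when rats were left out singly. Mural calls ran from 0 (without rat 2411, 2412, 2420 or 2531) to 3 (without rat 2532) for CA1 when rats were left out singly. Meningeal calls ran from 1 (5 of the 6 fits) to 3 (without rat 2532) for CA1 when rats were left out singly. Without rat 2532, 1 of the 3 choroid plexus genes was called higher in CA1. Dynlrb2, a dynein light chain of cilia, ran from 13.3 to 73.7 (median 21.8) in CA1 and from 0.857 to 17.8 (median 2.22) in DG, the regions overlapping through the DG library of rat 2532 (log2 difference 2.73, SE 0.31, limma adjusted p = 0.000795). Tmem212 (2.86) and the chemoattractant Rarres2 (0.71) were also higher in CA1. Ependymal calls ran from 2 (without rat 2411, 2412 or 2531) to 6 (without rat 2532) for CA1 when rats were left out singly. Summed ependymal levels were 283 to 516 in CA1 and 158 to 362 in DG, with Tmem212, Mia and Pifo at 0 in at least 1 library. The part of ependymal cells in the Stoml3 difference was not tested. Itm2a (kept in 3 of 6 fits, highest limma adjusted p = 0.0672 without rat 2531), Slco1c1 (4 of 6, 0.0713 without rat 2531), Abcc9 (2 of 6, 0.0894 without rat 2420) and Tmem212 (3 of 6, 0.0683 without rat 2531) did not keep their calls in every fit that left out 1 rat.

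**Figure D3:**
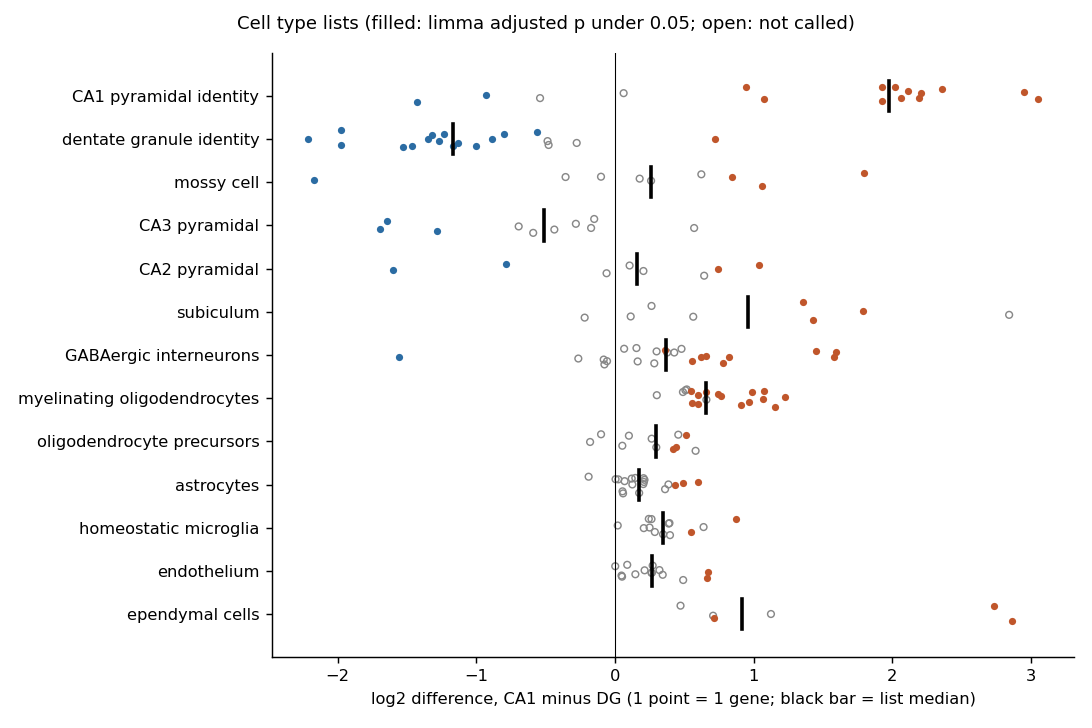
Log2 differences CA1 minus DG of the tested genes in 13 cell type lists, 1 point per gene, with filled points for genes called at a limma adjusted p under 0.05 and black bars for list medians. The CA1 pyramidal median lies at 1.97, the dentate granule median at -1.17 and the oligodendrocyte median at 0.66.

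Transcription factor genes of neurons were called in both directions: 7 of 45 tested genes were higher in CA1 and 13 higher in DG (median -0.091). Besides Lhx9, Prox1 and Rfx3, the forkhead factor Foxo1 (log2 difference -1.04, SE 0.13, limma adjusted p = 0.00119) and the basic helix-loop-helix factors Neurod2 (log2 difference -0.84, SE 0.11, limma adjusted p = 0.00138) and Neurod1 (-0.76) were higher in DG. Emx1 (-0.73), Nfib (-0.58) and Mef2d (-0.68), factors of cortical neuron development or activity, were as well. The TALE homeobox factor Meis2 (1.61) and the forkhead factor Foxp1 (0.95) joined Pou3f1 and Etv1 in CA1. Bcl11b at 0.10 and Neurod6 at 0.27 were not called. Factor calls ran from 7 (without rat 2415, 2420 or 2531) to 16 (without rat 2532) for DG when rats were left out singly. In the list for neurogenesis and immature granule cells, Neurod1 was higher in DG and Stmn1, a microtubule regulator (0.66), and Prokr2 in CA1, out of 14 tested. Neurogenesis calls ran from 2 (5 of the 6 fits) to 4 (without rat 2532) for CA1 when rats were left out singly. Neurod1 (kept in 1 of 6 fits, highest limma adjusted p = 0.0842 without rat 2531), Nfib (3 of 6, 0.0904 without rat 2531) and Mef2d (4 of 6, 0.0771 without rat 2420) did not keep their calls in every fit that left out 1 rat.

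Genes induced by neuronal activity split between the regions: 8 of 25 tested genes were higher in CA1 and 3 higher in DG (median 0.11). Nr4a2, an orphan nuclear receptor, ran from 789.7 to 1154 (median 958) in CA1 and from 289 to 621 (median 483) in DG. The regions did not overlap (2.03-fold higher in CA1, log2 difference 1.02, SE 0.12, limma adjusted p = 0.000955). The kinase Plk2 (1.02), the phosphatase Dusp6 (1.08), Nr4a1 (1.01), the zinc-finger factor Egr1 (0.54) and the cytoskeletal Arc (0.64) were higher in CA1. Jun ran from 1234 to 1834 (median 1558) in CA1 and from 2301 to 3335 (median 2848) in DG, again without overlap, but toward DG (log2 difference -0.87, SE 0.11, limma adjusted p = 0.00105). Egr3 (-0.66) and Bdnf followed Jun, while Fos ran from 42.2 to 133 (median 97.6) in CA1 and from 66.4 to 129 (median 82.9) in DG and was not called (limma adjusted p = 0.85). Activity-gene calls ran from 3 (5 of the 6 fits) to 6 (without rat 2532) for DG when rats were left out singly. Egr1 (kept in 5 of 6 fits, highest limma adjusted p = 0.0636 without rat 2531) and Arc (1 of 6, 0.145 without rat 2531) did not keep their calls in every fit that left out 1 rat.

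Of neurotrophins and their receptors, 0 of 8 tested genes were higher in CA1 and 3 higher in DG. Bdnf, the growth factor of activity-dependent plasticity, ran from 279 to 669 (median 498) in CA1 and from 845 to 1338 (median 1006) in DG, with every DG value above every CA1 value (2.11-fold higher in DG, log2 difference -1.08, SE 0.18, limma adjusted p = 0.00489). Ntf3 was 3.03-fold higher in DG and its receptor Ntrk3 1.44-fold (log2 difference -0.52, SE 0.12, limma adjusted p = 0.0184), whereas Ntrk2, the Bdnf receptor, at 0.30 was not called. The neuropeptide list had 5 of 20 tested genes higher in CA1 and 4 higher in DG. Vip, Cck, Tac1 and Adcyap1 were on the CA1 side with secretogranin 3, Scg3 (0.33), and Chgb, chromogranin B (log2 difference -1.16, SE 0.16, limma adjusted p = 0.00163), Pdyn, thyrotropin-releasing hormone, Trh (-1.66), and Scg2 (-0.48) on the DG side. Peptide calls ran from 3 (without rat 2411, 2415 or 2420) to 6 (without rat 2532) for CA1 when rats were left out singly. Ntrk3 (kept in 1 of 6 fits, highest limma adjusted p = 0.0662 without rat 2415), Scg3 (1 of 6, 0.103 without rat 2420) and Scg2 (1 of 6, 0.163 without rat 2531) did not keep their calls in every fit that left out 1 rat.

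Ionotropic glutamate receptor genes were called in part and in both directions. Of 6 NMDA receptor genes only Grin3a, whose subunit lowers calcium flux, was called. It ran from 208 to 261 (median 241) in CA1 and from 43.1 to 121 (median 66.5) in DG, with no overlap (3.35-fold higher in CA1, log2 difference 1.74, SE 0.18, limma adjusted p = 0.000574). The obligatory subunit Grin1 at -0.37, Grin2a at 0.25 and Grin2b at -0.02 were not called. For AMPA and kainate receptors and their partners, 3 of 21 tested genes were higher in CA1 and 7 higher in DG. The 4 AMPA subunit genes Gria1 to Gria4 were at -0.19, 0.26, 0.60 and 0.13, and none was called. Kainate subunits divided: Grik4 ran from 458 to 741 (median 589) in CA1 and from 1404 to 2692 (median 1780) in DG (log2 difference -1.64, SE 0.17, limma adjusted p = 0.000592), Grik5 (-0.71) and Grik3 (-0.55) were also higher in DG, and Grik1 was higher in CA1 (log2 difference 1.21, SE 0.15, limma adjusted p = 0.00113). The auxiliary subunits Neto1 (-1.10) and Neto2 (1.05) took opposite sides, Neto1 toward DG. AMPA and kainate calls ran from 4 (without rat 2415, 2420 or 2531) to 9 (without rat 2532) for DG when rats were left out singly. Grik5 (kept in 3 of 6 fits, highest limma adjusted p = 0.0839 without rat 2420) and Grik3 (2 of 6, 0.128 without rat 2420) did not keep their calls in every fit that left out 1 rat.

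Metabotropic glutamate receptor genes and Homer scaffolds had 3 of 10 tested genes higher in CA1 and 4 higher in DG. Grm2, a presynaptic group II receptor, was higher in DG (log2 difference -1.55, SE 0.15, limma adjusted p = 0.000491), its group II relative Grm3 in CA1 (0.39), and Grm5 at -0.08 was not called. The 3 Homer genes differed in direction: Homer3 ran from 321 to 479.9 (median 464) in CA1 and from 1063 to 1664 (median 1466) in DG, toward DG, and Homer1 (0.79) and Homer2 (log2 difference 1.03, SE 0.18, limma adjusted p = 0.00469) toward CA1. Of 13 GABA-A receptor genes, Gabrd, the delta subunit of extrasynaptic receptors, was called (1.75-fold higher in DG, log2 difference -0.81, SE 0.13, limma adjusted p = 0.00368). GABA-A calls ran from 1 (5 of the 6 fits) to 4 (without rat 2532) for DG when rats were left out singly. DESeq2 called 2 GABA-A genes higher in CA1 and 1 in DG, so the side with more calls changed with the tool. Grm3 (kept in 1 of 6 fits, highest limma adjusted p = 0.101 without rat 2531) did not keep its call in every fit that left out 1 rat.

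Receptors for monoamines and acetylcholine had more calls toward CA1: 12 of 30 tested genes were higher in CA1 and 4 higher in DG (median 0.16). Called or not, 16 differences were toward CA1 and 14 toward DG. Htr2c ran from 858 to 1492 (median 1288) in CA1 and from 60.9 to 339 (median 198) in DG, with no overlap (7.50-fold higher in CA1, log2 difference 2.91, SE 0.28, limma adjusted p = 0.00048). Htr5b (2.19), Htr1b (log2 difference 1.84, SE 0.28, limma adjusted p = 0.00254) and Htr2a (0.63), further serotonin receptors, were higher in CA1, while Htr1a ran from 156 to 397 (median 336) in CA1 and from 450.4 to 712 (median 622) in DG, toward DG (log2 difference -0.97, SE 0.13, limma adjusted p = 0.00138). Htr6 was also higher in DG (-0.88). Dopamine receptors split likewise: Drd5 was 6.07-fold higher in CA1 (log2 difference 2.60, SE 0.33, limma adjusted p = 0.00114) and Drd1 was higher in DG (-0.65). Drd5 in CA1 of rat 2532 was 32.4, within the DG range, and 98.0 to 133 in the other rats. The histamine receptor Hrh3 (1.38), the muscarinic receptors Chrm2 (1.13) and Chrm4 (0.66) and the nicotinic subunits Chrna4 (0.89) and Chrna5 (1.29) were higher in CA1. Monoamine and acetylcholine calls ran from 5 (without rat 2531) to 12 (without rat 2532) for CA1 and from 1 (without rat 2415, 2420 or 2531) to 10 (without rat 2532) for DG when rats were left out singly. Htr2a (kept in 2 of 6 fits, highest limma adjusted p = 0.126 without rat 2531), Htr6 (3 of 6, 0.102 without rat 2420), Drd1 (1 of 6, 0.138 without rat 2531), Hrh3 (5 of 6, 0.0563 without rat 2531), Chrm2 (2 of 6, 0.084 without rat 2415), Chrm4 (1 of 6, 0.0887 without rat 2420), Chrna4 (5 of 6, 0.0516 without rat 2531) and Chrna5 (1 of 6, 0.143 without rat 2531) did not keep their calls in every fit that left out 1 rat.

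Voltage-gated potassium channel genes had 7 of 39 tested genes higher in CA1 and 14 higher in DG (median -0.22). Kcna1, a subunit of low-threshold axonal channels, ran from 584 to 725 (median 638) in CA1 and from 1064 to 1755 (median 1214) in DG, without overlap (log2 difference -0.97, SE 0.11, limma adjusted p = 0.000796). The modifier subunit Kcng1 (log2 difference -1.22, SE 0.14, limma adjusted p = 0.000807), Kcnc4 (-1.14), the M-current subunit Kcnq5 (-0.85) and the A-type subunit Kcnd3 (-0.52) were higher in DG. Kcnf1 (log2 difference 1.49, SE 0.19, limma adjusted p = 0.00131), Kcnh7 (1.07) and the A-type auxiliary subunits Dpp10 (0.96) and Kcnip1 (0.93) were higher in CA1. Kv calls ran from 4 (without rat 2420 or 2531) to 9 (without rat 2532) for CA1 when rats were left out singly. Other potassium and HCN channels had 4 of 27 tested genes higher in CA1 and 5 higher in DG. The inward rectifiers Kcnj2 (-1.07), Kcnj6 (log2 difference -0.80, SE 0.11, limma adjusted p = 0.00167) and Kcnj4 (-0.63) and the leak channel Kcnk10 (-0.92) were higher in DG. Another leak channel, Kcnk3 (log2 difference 0.99, SE 0.16, limma adjusted p = 0.00321), and the SK channel Kcnn2 (0.68) were higher in CA1. 0 of 12 voltage-gated sodium channel genes were called by limma, while 5 had an unadjusted p under 0.05. DESeq2 called 2 of them, and without rat 2532 limma called 2, both higher in DG. Kcnq5 (kept in 5 of 6 fits, highest limma adjusted p = 0.0568 without rat 2531), Kcnd3 (3 of 6, 0.0606 without rat 2531) and Kcnip1 (1 of 6, 0.111 without rat 2531) did not keep their calls in every fit that left out 1 rat.

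Voltage-gated calcium channel genes had 2 of 15 tested genes higher in CA1 and 5 higher in DG. The L-type subunit Cacna1c ran from 635 to 940.3 (median 825) in CA1 and from 1298 to 1963 (median 1725) in DG, without overlap (log2 difference -1.07, SE 0.11, limma adjusted p = 0.000592). Its L-type relative Cacna1d (log2 difference -0.91, SE 0.10, limma adjusted p = 0.000626) and the P/Q-type subunit Cacna1a (-0.62) were higher in DG. The T-type subunit Cacna1g (0.68) and the auxiliary subunit Cacna2d2 (log2 difference 0.81, SE 0.12, limma adjusted p = 0.0023) were higher in CA1. Calcium channel calls ran from 3 (without rat 2415, 2420 or 2531) to 8 (without rat 2532) for DG when rats were left out singly. Genes of calcium stores, buffers and effectors had 6 of 32 tested genes higher in CA1 and 9 higher in DG. The ryanodine receptors of the endoplasmic reticulum Ryr1 (log2 difference -1.43, SE 0.16, limma adjusted p = 0.000807) and Ryr2 (-1.09), the store-operated channel Orai2 (-1.07) and the sodium-calcium exchanger Slc8a2 (-0.99) were higher in DG. The other major release channel, the inositol trisphosphate receptor Itpr1, ran from 12770 to 18950 (median 17790) in CA1 and from 7045 to 10890 (median 8030) in DG and was higher in CA1 (log2 difference 0.99, SE 0.11, limma adjusted p = 0.000762), as was the exchanger Slc8a1 (0.59). Fkbp1b, which binds ryanodine receptors, was 1.79-fold higher in CA1 (0.84). The kinase genes Camk2b (-0.82) and Camk2d (0.83) took opposite sides, Camk2b toward DG. Calcium store calls ran from 3 (without rat 2420) to 8 (without rat 2532) for CA1 when rats were left out singly. Slc8a1 (kept in 4 of 6 fits, highest limma adjusted p = 0.064 without rat 2420) and Camk2d (3 of 6, 0.0906 without rat 2531) did not keep their calls in every fit that left out 1 rat.

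In cyclic nucleotide signalling, 2 of 27 tested genes were higher in CA1 and 4 higher in DG. The shares over all tested genes were 6.38% for CA1 and 6.82% for DG. Adcy1, a calcium-stimulated adenylyl cyclase, ran from 1555 to 7764 (median 5087) in CA1 and from 10400 to 13920 (median 11370) in DG, with no overlap (2.64-fold higher in DG, log2 difference -1.40, SE 0.23, limma adjusted p = 0.0043). Gnal, a stimulatory G protein subunit (-1.25), and the phosphodiesterases Pde1b (log2 difference -0.78, SE 0.11, limma adjusted p = 0.00211) and Pde7b (-0.82) were higher in DG. Pde1a (log2 difference 0.83, SE 0.12, limma adjusted p = 0.00223) and Pde4b (0.62), which also degrade cyclic nucleotides, were higher in CA1, so that the paralogues Pde1a and Pde1b differed in opposite directions. Cyclic nucleotide calls ran from 1 (without rat 2420 or 2531) to 5 (without rat 2532) for CA1 and from 3 (without rat 2420) to 9 (without rat 2532) for DG when rats were left out singly. Pde7b (kept in 5 of 6 fits, highest limma adjusted p = 0.0545 without rat 2420) and Pde4b (3 of 6, 0.0571 without rat 2420) did not keep their calls in every fit that left out 1 rat.

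Genes for synaptic vesicles and release leaned toward DG: 3 of 39 tested genes were higher in CA1 and 13 higher in DG (median -0.25). Slc30a3, which loads zinc into vesicles and is prominent in mossy fibres, ran from 1581 to 3220 (median 1839) in CA1 and from 3244 to 4383 (median 4025) in DG (log2 difference -0.96, SE 0.13, limma adjusted p = 0.00147). The complexin Cplx2 (-0.99), synapsin 2, Syn2 (log2 difference -0.79, SE 0.08, limma adjusted p = 0.000617), the calcium sensors Syt7 (-1.0) and Syt10 (-1.39), the priming factor Unc13c (-1.38) and the vesicular glutamate transporter Slc17a7 (-0.62) were higher in DG. Cplx3 (1.08), Doc2b (0.82) and Slc17a6 were higher in CA1. Vesicle calls ran from 2 (5 of the 6 fits) to 6 (without rat 2532) for CA1 and from 8 (without rat 2420 or 2531) to 16 (without rat 2532) for DG when rats were left out singly. On the postsynaptic side, 2 of 23 tested genes were higher in CA1 and 3 higher in DG, where all tested genes gave 6.38% and 6.82%. Neurogranin, Nrgn, a calmodulin-binding protein (-0.55), Camk2b and Dlgap2 (-0.53) were toward DG, and Homer1 and Cnksr2 (0.60) toward CA1. Without rat 2415 the balance turned to 2 and 1. Scaffold calls ran from 1 (without rat 2420 or 2531) to 2 (without rat 2411, 2412, 2415 or 2532) for CA1 and from 1 (without rat 2415 or 2531) to 4 (without rat 2532) for DG when rats were left out singly. Cplx3 (kept in 2 of 6 fits, highest limma adjusted p = 0.0916 without rat 2415), Doc2b (5 of 6, 0.050 without rat 2531), Nrgn (3 of 6, 0.103 without rat 2420), Dlgap2 (3 of 6, 0.0767 without rat 2415) and Cnksr2 (4 of 6, 0.0752 without rat 2531) did not keep their calls in every fit that left out 1 rat.

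Synaptic organisers and adhesion genes had 7 of 42 tested genes higher in CA1 and 11 higher in DG. C1ql2, C1ql3 (-0.94) and Cbln1 (-0.93), secreted proteins of the C1q family, were higher in DG, whereas their relative Cbln2 ran from 172 to 369 (median 224) in CA1 and from 54.9 to 160.4 (median 81.8) in DG, toward CA1 (log2 difference 1.47, SE 0.18, limma adjusted p = 0.00116). The latrophilins divided in the same way, Adgrl2 toward CA1 and Adgrl1 toward DG (-0.50), and so did their ligands, Flrt3 toward DG (log2 difference -1.33, SE 0.16, limma adjusted p = 0.00111) and Flrt2 toward CA1 (0.66). The pentraxin receptor Nptxr (-0.56) was higher in DG, as was Nptx1. Of the cadherins, Cdh9 and Cdh13 (-0.82) were higher in DG and Cdh10 (0.64) and Cdh11 (0.58) in CA1. Organiser calls ran from 4 (without rat 2531) to 9 (without rat 2532) for CA1 and from 5 (without rat 2420) to 17 (without rat 2532) for DG when rats were left out singly. C1ql3 (kept in 3 of 6 fits, highest limma adjusted p = 0.0839 without rat 2531), Cbln1 (3 of 6, 0.0681 without rat 2420), Adgrl1 (3 of 6, 0.072 without rat 2420), Nptxr (2 of 6, 0.134 without rat 2531) and Cdh11 (3 of 6, 0.0624 without rat 2531) did not keep their calls in every fit that left out 1 rat.

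Axon guidance genes had 7 of 50 tested genes higher in CA1 and 14 higher in DG (median -0.28). Nrp2, a receptor for class 3 semaphorins, ran from 568 to 1441 (median 840.5) in CA1 and from 1885 to 2414 (median 2056) in DG (2.42-fold higher in DG, log2 difference -1.27, SE 0.16, limma adjusted p = 0.00109). The repellents Slit1 (-0.86) and Slit2 (-1.03) and the Robo family member Robo3 (-1.12), and the netrin receptors Unc5d (-1.49) and Dcc (-0.82), were higher in DG too. Sema3a ran from 12.2 to 45.4 (median 34.2) in CA1 and from 3.32 to 31.8 (median 9.17) in DG; the ranges overlapped, and the within-rat difference was toward CA1 (log2 difference 1.53, SE 0.40, limma adjusted p = 0.0343). Sema5b (1.38), Sema3d (1.09), the ephrin Efnb2 (1.30) and the plexin Plxnd1 (1.06) were higher in CA1, and Sema5a (-1.01) and Sema3c (-1.05) in DG. Guidance calls ran from 2 (without rat 2531) to 11 (without rat 2532) for CA1 and from 11 (without rat 2412, 2415, 2420 or 2531) to 25 (without rat 2532) for DG when rats were left out singly. Sema3a (kept in 2 of 6 fits, highest limma adjusted p = 0.115 without rat 2420), Sema3d (4 of 6, 0.0617 without rat 2415), Plxnd1 (2 of 6, 0.0803 without rat 2420) and Sema3c (1 of 6, 0.101 without rat 2531) did not keep their calls in every fit that left out 1 rat.

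**Figure D4:**
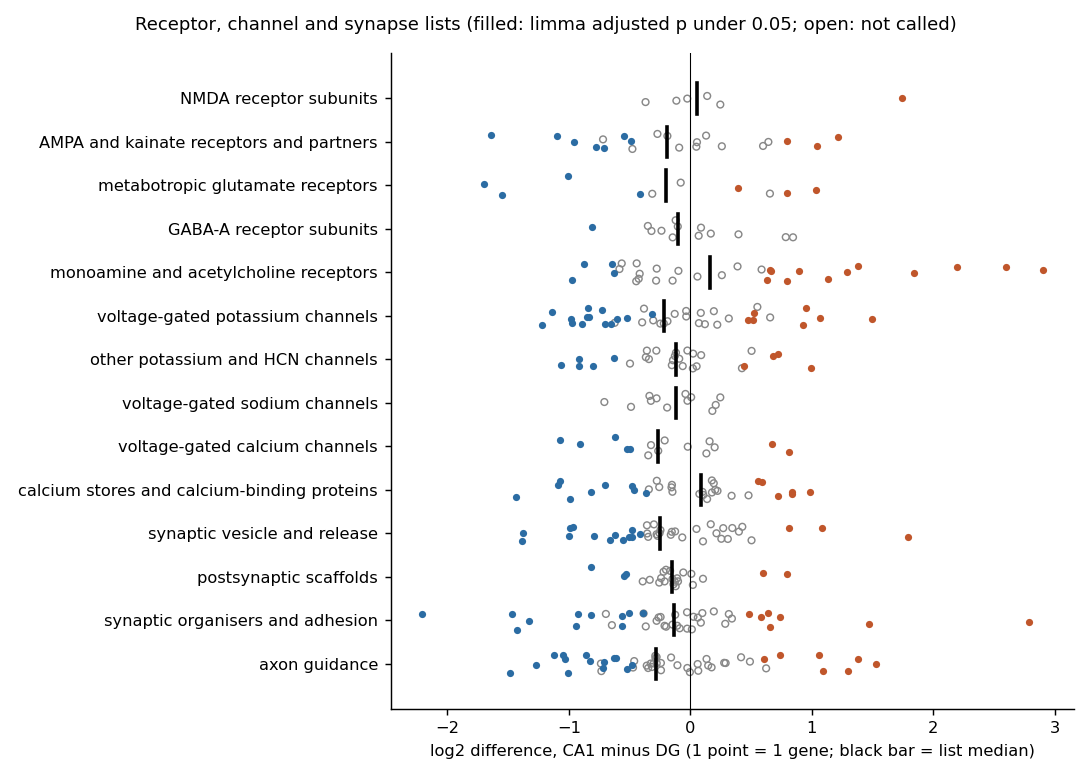
Log2 differences CA1 minus DG of tested genes in 14 receptor, channel and synapse lists, 1 point per gene, filled where the limma adjusted p was under 0.05, with black bars for list medians. Called genes lie on both sides of 0 in most lists, and 0 of 12 sodium channel genes are filled.

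Wnt, Notch and BMP genes had 5 of 41 tested genes higher in CA1 and 4 higher in DG, where 13.2% of all tested genes were called in either direction. Fzd7, a Wnt receptor, ran from 78.6 to 133 (median 115) in CA1 and from 5.53 to 40.3 (median 31.8) in DG, the DG library of rat 2531 being lowest (4.07-fold higher in CA1, log2 difference 2.02, SE 0.35, limma adjusted p = 0.00497). Wnt2 (1.34) and Fzd1 (0.84) were also higher in CA1 and Wnt4 (-0.92) and the Notch target Hey1 (-0.83) in DG. The side with more calls changed with array weights, to 8 in CA1 and 9 in DG, and the list median changed sign with the values as deposited. Wnt, Notch and BMP calls ran from 3 (without rat 2412, 2415, 2420 or 2531) to 8 (without rat 2532) for CA1 and from 2 (without rat 2415 or 2420) to 7 (without rat 2532) for DG when rats were left out singly. In the perineuronal net list, 1 of 16 tested genes were higher in CA1 and 2 higher in DG, and without rat 2532 5 and 2. Matrix calls ran from 1 (5 of the 6 fits) to 5 (without rat 2532) for CA1 and from 0 (without rat 2415, 2420 or 2531) to 2 (without rat 2532) for DG when rats were left out singly. Of 16 corticosteroid genes, Fkbp5, a glucocorticoid-induced chaperone, was called (1.54-fold higher in DG, log2 difference -0.62, SE 0.11, limma adjusted p = 0.00472). The mineralocorticoid receptor Nr3c2, at 0.06, was not called. Corticosteroid calls ran from 1 (5 of the 6 fits) to 3 (without rat 2532) for DG when rats were left out singly. Hey1 (kept in 4 of 6 fits, highest limma adjusted p = 0.0946 without rat 2420) did not keep its call in every fit that left out 1 rat.

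Of 60 nuclear genes for oxidative phosphorylation 0 were called by limma, edgeR or DESeq2, 5 had an unadjusted p under 0.05, and their median was -0.14. Without rat 2532, 2 were higher in CA1 and 1 in DG. By contrast, 6 of 11 mitochondrially encoded genes were higher in CA1, among them Mt-nd1, of complex I (0.63). Mt-co3, a subunit of cytochrome oxidase, ran from 136700 to 358100 (median 186400) in CA1 and from 121100 to 144500 (median 128700) in DG (log2 difference 0.57, SE 0.15, limma adjusted p = 0.0321). The ranges of Mt-co3 overlapped, its highest CA1 value was in rat 2532, and the mitochondrial share of reads was 7.83 to 11.1% in CA1 and 7.79 to 9.07% in DG. Nuclear copies of mitochondrial genes can share reads with these genes, so the values are uncertain. Mitochondrial calls ran from 0 (without rat 2412, 2420 or 2531) to 8 (without rat 2532) for CA1 when rats were left out singly. Lysosome and autophagy genes had 1 of 31 tested genes higher in CA1 and 1 higher in DG, where all tested genes gave 6.38% and 6.82%. These were Npc1, a cholesterol transporter (0.44), and Mcoln1, a lysosomal channel (-0.40). Lysosome calls ran from 0 (5 of the 6 fits) to 4 (without rat 2532) for CA1 and from 0 (without rat 2412, 2415, 2420 or 2531) to 4 (without rat 2532) for DG when rats were left out singly. Mt-nd1 (kept in 2 of 6 fits, highest limma adjusted p = 0.1 without rat 2531), Mt-co3 (3 of 6, 0.1 without rat 2531), Npc1 (1 of 6, 0.151 without rat 2531) and Mcoln1 (2 of 6, 0.137 without rat 2531) did not keep their calls in every fit that left out 1 rat.

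Among stress lists, heat shock and unfolded protein genes had 1 of 27 tested genes higher in CA1 and 2 higher in DG, near the 6.38% and 6.82% of all tested genes. The stress factors Ddit3 (-0.68) and Hsf1 (-0.46) were higher in DG and Atf4 (0.33) in CA1. The balance turned to 3 and 1 when the rat term was left out of the fit, and the list median changed sign with the values as deposited. Heat shock calls ran from 0 (without rat 2412, 2415, 2420 or 2531) to 6 (without rat 2532) for CA1 and from 0 (without rat 2415 or 2420) to 4 (without rat 2532) for DG when rats were left out singly. Antioxidant genes had 2 of 30 tested genes higher in CA1 and 0 higher in DG: the factor Nfe2l2 (0.53) and the glutathione transferase Gstp1 (log2 difference 0.67, SE 0.17, limma adjusted p = 0.0285). Antioxidant calls ran from 0 (without rat 2415, 2420 or 2531) to 3 (without rat 2532) for CA1 when rats were left out singly. Of cell cycle and senescence genes, 1 of 14 tested genes were higher in CA1 and 1 higher in DG, namely the retinoblastoma gene Rb1 (0.66) and Igfbp3 (-0.55). Ddit3 (kept in 2 of 6 fits, highest limma adjusted p = 0.139 without rat 2420), Hsf1 (4 of 6, 0.077 without rat 2415), Atf4 (1 of 6, 0.132 without rat 2420), Nfe2l2 (2 of 6, 0.135 without rat 2531), Gstp1 (2 of 6, 0.0859 without rat 2531), Rb1 (1 of 6, 0.143 without rat 2531) and Igfbp3 (1 of 6, 0.156 without rat 2420) did not keep their calls in every fit that left out 1 rat.

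The young vehicle rats gave the same regional contrast without sharing a library with the aged rats. In them 1793 of 14657 genes were called (12.2%). Of 1904 genes called in aged rats and tested in young rats, 1888 had the same sign, 1121 of them also called, and of those at least 2-fold in aged rats 516 of 519 had the same sign. Across 14390 genes tested at both ages Pearson's r of the differences was 0.740, a description across genes, which are not independent. The within-rat difference itself was compared between ages over 28 libraries and 15015 genes. 0 genes (0%) passed limma's adjusted p under 0.05, 712 had an unadjusted p under 0.05, and the lowest adjusted p was 0.749. Neither edgeR nor DESeq2 was run on this difference.

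The regional differences of the markers stood at 1.94 in aged and 3.14 in young rats for Wfs1, 2.37 in aged and 3.39 in young rats for Fibcd1 and -1.34 in aged and -1.22 in young rats for Prox1, from the joint fit of both ages. Their limma adjusted p for the age difference was 0.749, 0.749 and 0.896. Met, at 3.91 in aged and 3.98 in young rats, and Mal, at 1.08 in aged and 1.09 in young rats, had nearly the same values at both ages. The following 4 genes were chosen after their values were seen. Ppl stood at -2.34 in aged and -1.10 in young rats, Rbm20 at -2.31 in aged and -0.95 in young rats, C1ql2 at -2.20 in aged and -1.34 in young rats and Calb1 at 0.73 in aged and -0.08 in young rats. The limma adjusted p of each age difference was 0.749, so none passed, and a p above the threshold does not show that the ages were alike. The young CA1 library of rat 2572 had 15.8% mitochondrial reads, and leaving it out also gave 0 called genes.

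**Figure D5:**
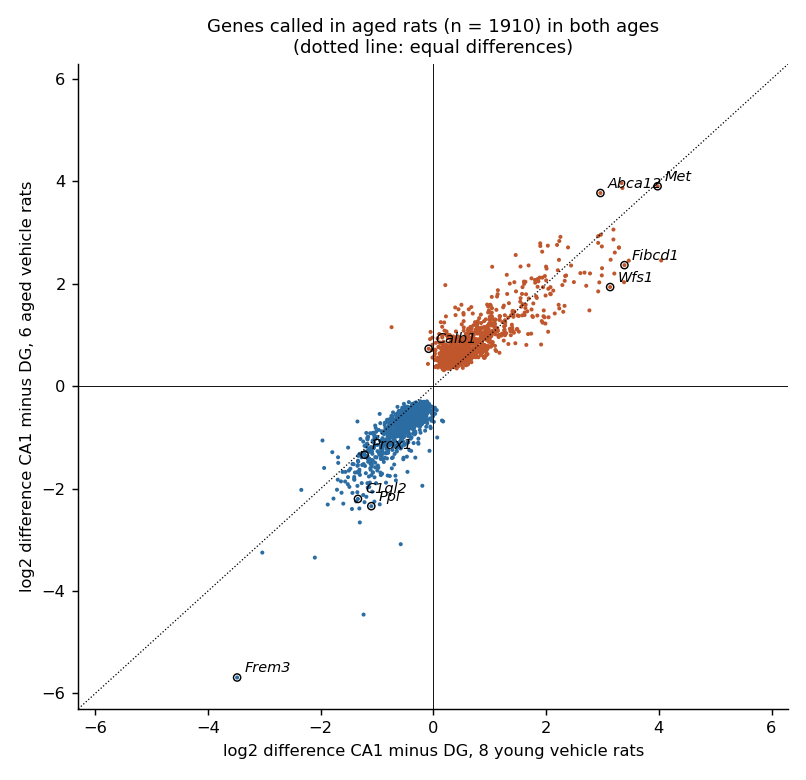
Log2 difference CA1 minus DG in 8 young vehicle rats (x axis) against 6 aged vehicle rats (y axis) for genes called in aged rats, orange where higher in CA1 and blue where higher in DG. The dotted line marks equal differences, and the plotted values come from the joint fit of both ages. Calb1 lies near 0 in young rats. In separate fits of each age, 1888 of 1904 genes had the same sign at both ages.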

How the data were processed

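The files hold normalized read counts per gene, a signal that the authors deposited in separate tables for CA1 and DG. The submitters' processing notes name Partek, STAR, DESeq2 and the rat build rn6, without versions or roles, and strand use is not given in the sources used here. The values are whole reads divided by a size factor. Of the nonzero values checked, 99.72 to 99.81% in CA1 and 100% in DG were whole multiples of 1 step (tolerance 0.1), which gave back the reads. Genes with the most reads were left out of this check. Since the tables were normalized separately, the 12 libraries were rescaled jointly by TMM. Genes in both tables (19882) that reached 10 or more in 6 or more of the 12 columns were kept, leaving 14470. log2(value + 1) was fitted with limma 3.58.1 in R 4.3.3 (trend, robust, rat as block), with Benjamini-Hochberg adjustment at 0.05; differences of low genes are understated on this scale. Rats are separate animals, so p-values rest on how the within-rat difference varied among these rats, with variances moderated across genes by limma. Pairing comes from the labels, since both libraries of a rat come from 1 hippocampus; deviations of the same rat correlated at a median of 0.057 (-0.035 to 0.13), and 4 of 6 rats matched best with their own number.

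The age comparison tested the within-rat difference in 28 vehicle libraries. Alternatives were edgeR 4.0.16 and DESeq2 1.42.0 on recovered reads, other rescalings, pseudocounts and filters, array weights, no rat term, and leaving out each rat. No 2 libraries of a group agreed within sampling noise (lowest chi-square per gene 6.66), and the columns of rats given LPS were not used. Named genes were the 3 markers, the 10 largest differences each way among called genes with ordinary symbols and non-overlapping regions, and from each list up to 3 called members of smallest p in the commoner direction and 1 in the other; further list members are given with values. The comparison and lists were chosen with earlier results of these data known. Promoters are RefSeq sequences of GRCr8, a build other than that of the files, matched by symbol; Prox1, Nov, Cst6 and Nptx1 were looked up too and are not shown. Some genes are not reported here and were left out of the named genes. The limma fit of CA1 against DG in aged rats was tested on simulated counts. The same was not done for the age comparison, the list counts or the outlier check.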

Additional observations from a re-analysis of the deposited data

Results flagged for a closer look

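Levels of the 145 named genes were examined in each region for a highest or lowest library whose gap to its nearest neighbour, as a share of the group's range, exceeded Dixon's 95% critical value. This held for 54 of 290 groups (18.6%), where chance gives about 1 in 20, and 41 of the 54 were libraries of rat 2532, 6 of rat 2531, 4 of rat 2411 and 3 of rat 2412. Values are rescaled normalized reads.

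The CA1 library of rat 2532 stood apart from the other CA1 libraries for Wfs1 (42055, others 11257 to 17884), Nov (9722, others 4569 to 6334), Prokr2 (246, others 49.0 to 75.8), Frem3 (94.3, others 0 to 17.4), Man1a1 (1966, others 918 to 1280) and Calb1 (1916, others 1004 to 1318). In the same library, so did the values of Ociad2 (385, others 189.6 to 215), Calcrl (557, others 157 to 229.7), Rgs14 (5985, others 2498 to 3442), Cck (5247, others 2643 to 3524), Aqp4 (15263, others 5888 to 8203) and Gja1 (9741, others 5611 to 6689). It also stood apart for Cd44 (374, others 116 to 167), Osmr (53.0, others 20.4 to 29.6), Mog (2640, others 1112 to 1642), Neu4 (224, others 136 to 157), Lpl (1462, others 422 to 639) and Itm2a (1142, others 469.6 to 685). Further genes of this library were Slco1c1 (2864, others 1051 to 1353), Dcn (924, others 226 to 387), Rarres2 (348, others 164 to 218), Neurod1 (685, others 250.3 to 366), Plk2 (5719, others 3157 to 3931) and Neto1 (1631, others 512 to 842). Values beyond the others were also those of Grik1 (502, others 233 to 310.4), Gnal (79.6, others 226 to 307), Drd5 (32.4, others 98.0 to 133), Htr1a (156, others 325 to 397), Gstp1 (4674, others 1361 to 1833) and Nfe2l2 (718, others 416 to 504). The list goes on with Rb1 (1083, others 359 to 504), Mt-atp8 (101300, others 25611 to 42676), Mt-co3 (358140, others 136670 to 197080) and Mt-nd4l (20405, others 7626 to 11682). The DG library of rat 2532 stood apart from the other DG libraries for Prox1 (1954, others 2489 to 2780), Stoml3 (9.36, others 0 to 2.89), Msx3 (21.5, others 11.7 to 14.4), Spp1 (61.8, others 0 to 23.1), Dynlrb2 (17.8, others 0.857 to 4.81) and Rarres2 (200.4, others 102 to 133). In the same library, so did the values of Mt-nd4l (10726, others 7041 to 8346). The DG library of rat 2531 stood apart from the other DG libraries for Fibcd1 (399, others 1170 to 1489), Cyp2a1 (47.6, others 15.4 to 24.9), Maml2 (827, others 473 to 598), Kcna1 (1755, others 1064 to 1260), Flrt3 (1103, others 784 to 896) and Fzd7 (5.53, others 27.6 to 40.3). The CA1 library of rat 2412 stood apart from the other CA1 libraries for Pde1b (1029, others 1357 to 1516). The DG library of rat 2412 stood apart from the other DG libraries for Etv1 (1339, others 661 to 908) and Slc17a6 (277, others 67.5 to 129). The CA1 library of rat 2411 stood apart from the other CA1 libraries for Lhx9 (33.7, others 11.4 to 19.7), Kcng1 (1118, others 538 to 732) and Pde1a (814, others 1188 to 1272). The DG library of rat 2411 stood apart from the other DG libraries for Syn2 (7566, others 6211 to 6682).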

How the results depend on the processing

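The count of 1910 called genes rested on the library weighting and on single rats. Array weights gave 4557, and leaving out 1 rat gave 896 (rat 2420) to 3545 (rat 2532). Other settings stayed within 1.5 times, from 1702 with no filter to 2662 with DESeq2. The count of at least 2-fold calls, 525, ran from 372 with a mean value of at least 50 to 621 with array weights, and from 391 to 604 when 1 rat was left out. Without the replicate block, that is without pairing by rat, 2010 genes were called and 516 at least 2-fold, and 11 of the 145 named genes lost their call. Values as deposited gave 2017, 815 higher in CA1 and 1202 in DG. Of 2598 alternative values for the named genes, 2392 kept direction and call, 206 lost the call and 0 reversed. The count of 0 for the age difference held in every alternative run. Depth of 12292357 to 18497891 reads limits genes near 0, such as Stoml3 and Abca12.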
